A study of Saccharomyces cerevisiae with 6 samples.

Results

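The autophagy-related genes of budding yeast, named ATG and a number, were followed here through a paraquat exposure on 2-colour expression arrays. A gene was taken when the platform annotation or the current gene name of its probe was ATG followed by digits, which gave 36 of the 6912 probes, each for a different gene. The RefSeq gene table holds 37 such symbols. The remaining gene, ATG44, was not analysed here. Treated cultures of strain S288C received 35 ppm paraquat during exponential growth in YPD and were harvested 2 h later, and their cDNA carried Cy5. Untreated cultures of S288C, kept for the same 2 h in YPD without any addition, supplied the cDNA that carried Cy3. The design comprised 3 hybridisations of independent biological samples, called replicates 1, 2 and 3, with a high and a low laser power scan of each. Paraquat, or methyl viologen, passes electrons to oxygen and so generates superoxide in the cell. The labels name no gene deletion in either culture.

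Autophagy carries cytoplasm and organelles to the vacuole inside membranes that are built for the purpose, and in yeast it is best known as a response to starvation for nitrogen. The Atg1 kinase complex starts the process, vesicles with Atg9 and the lipid transfer protein Atg2 supply membrane, a phosphatidylinositol 3-kinase marks it, and ligation systems related to ubiquitin attach Atg8 to it. Receptors such as Atg32 and Atg39 select particular cargo, and vacuolar enzymes break it down. Transcripts of several ATG genes, ATG8 among them, are known to rise in starved yeast.

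Values are log ratios taken as log2 of treated over untreated, so that a negative value means less mRNA after paraquat. Neither the base of the logarithm nor the direction of the ratio is stated in the sources used here; the opposite direction would turn every sign, and another base would change the folds but no test against 0. Treated cDNA carried Cy5 on each array, so that an effect of the dye and an effect of paraquat cannot be told apart. Of the 36 genes, 35 had a value on all 3 arrays and were tested; ATG2 had one on replicates 2 and 3 only. A ratio gives no transcript level, so the level of one ATG gene cannot be set against that of another, and fewer cells with a transcript and less of it per cell cannot be told apart.

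None of the 35 ATG genes passed the test for a change after paraquat. The limma test of the mean against 0, adjusted over all 5693 features, called 0 of them higher and 0 lower at an adjusted p under 0.05, where 0.0351% of all features were called higher and 0% lower. The smallest adjusted p of an ATG gene was 0.218, for ATG17. At an unadjusted p under 0.05, 0 of the 35 were higher, against 5.48% of all features, and 3 were lower, or 8.57%, against 5.29% of all features. These 3 genes were ATG17, ATG39 and ATG38. The mean was nearer to 0 than 0.5 for 32 of the 35, or 91.4%, and for 93.4% of all features. The 95% intervals rest on the limma variance, which is drawn toward that of all features, and are not adjusted over genes. They reached from 0.40 to 0.55 on either side of the mean, although the SD over arrays ran from 0.04 to 1.01. For 33 of the 35 this interval lay inside a 2-fold change either way, the exceptions being ATG17 and ATG38. The same held for 5446 of the 5693 features. Intervals from the spread of each gene alone were not computed, so larger changes are not excluded for genes whose arrays disagree.

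**Figure D1:**
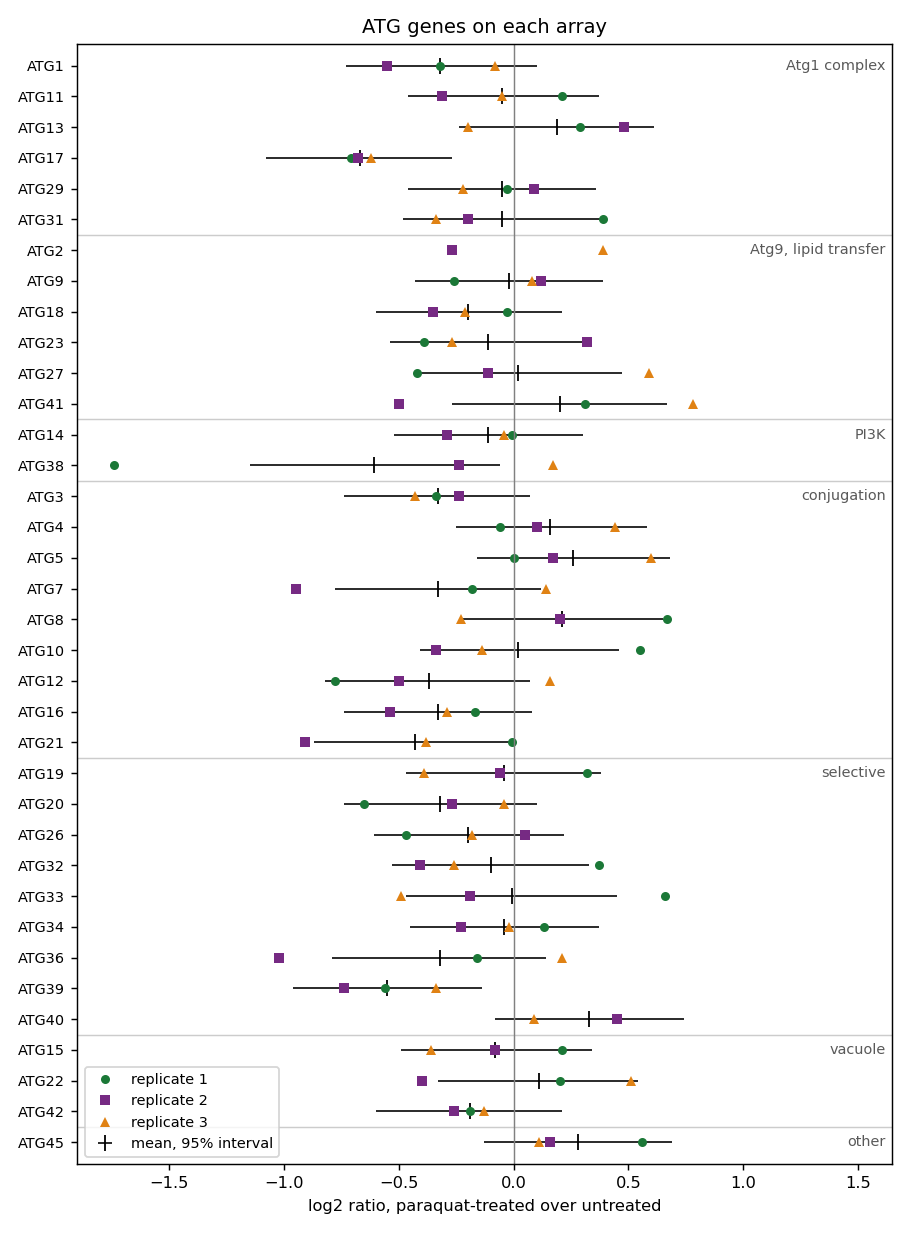
Log2 ratio of treated over untreated cultures (horizontal axis) for the 36 ATG genes, grouped by role, with a symbol for each of the 3 arrays and, for the 35 tested genes, a bar for the mean and a line for its 95% interval. The symbols of ATG17 lie close together near -0.67 while those of ATG38 spread between -1.74 and 0.17; for ATG40 the symbols of replicates 1 and 2 coincide.

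Within the Atg1 complex, ATG17 had the lowest mean of all 35 genes, and the other members lay nearer to 0. ATG17, the scaffold of the complex during starvation, had log2 ratios of -0.71, -0.68 and -0.62 on replicates 1, 2 and 3. All 3 arrays were low and close together, with a mean of -0.67 ± 0.04 (SD, n = 3 arrays), or 1.59-fold lower, and a 95% interval of -1.08 to -0.27. By its mean the gene lay at percentile 0.667 of all features, and its limma adjusted p of 0.218 did not pass. On replicate 1 the high power scan gave -0.46 and the low power scan -0.97, so the agreement between arrays was closer there than that between the scans. Replicates 2 and 3 had a value in the high power scan only. On high power scans alone the mean of ATG17 was -0.59 (limma adjusted p = 0.358). ATG1, the kinase itself, had -0.32, -0.55 and -0.08, below 0 on each array. Its mean was -0.32 ± 0.23 (SD, n = 3 arrays; limma adjusted p = 0.602) and -0.20 without replicate 2.

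The partners of Atg17 and the remaining subunits did not share its position. ATG29 and ATG31, whose products bind Atg17 in a stable subcomplex, had means of -0.05 each, with ATG29 at -0.03, 0.09 and -0.22 and ATG31 at 0.39, -0.20 and -0.34. Both held arrays on either side of 0. ATG13, the regulatory subunit that receives signals from the TOR kinase, had 0.29, 0.48 and -0.20, with a mean of 0.19 ± 0.35 (SD, n = 3 arrays), and 0.04 without replicate 2. ATG11, the scaffold of selective autophagy in growing cells, had 0.21, -0.31 and -0.05 and a mean of -0.05.

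Of the 5 tested genes for membrane supply, all but ATG18 had an SD over arrays larger than the size of their mean. ATG41, whose product interacts with Atg9, had 0.31, -0.50 and 0.78, and its mean of 0.20 ± 0.64 (SD, n = 3 arrays) had a 95% interval of -0.27 to 0.67. ATG27, a membrane protein needed for Atg9 cycling, had -0.42, -0.11 and 0.59. Replicate 3 was thus the highest array for both genes. ATG9 itself, the membrane protein of the seed vesicles, had a mean of -0.02 ± 0.21, and ATG23, a peripheral partner of Atg9, of -0.11 ± 0.38 (SD, n = 3 arrays). ATG18, which binds phosphatidylinositol 3-phosphate and works with Atg2, had -0.03, -0.35 and -0.21, below 0 throughout, with a mean of -0.20, and -0.12 without replicate 2. ATG2 had -0.27 on replicate 2 and 0.39 on replicate 3, which lie on opposite sides of 0.

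Of the subunits of phosphatidylinositol 3-kinase complex I, ATG38 had a low mean that a single array supplied. ATG38, a subunit that links the parts of this complex, had -1.74, -0.24 and 0.17, each from a high power scan alone. Replicate 1 held the lowest value of any ATG gene on any array, and replicate 3 was above 0. The mean was -0.61 ± 1.01 (SD, n = 3 arrays; limma adjusted p = 0.409), and it was -0.04 without replicate 1. ATG14, the subunit that directs the complex to autophagy, had -0.00811, -0.29 and -0.04, with a mean of -0.11 ± 0.15 (SD, n = 3 arrays), and -0.03 without replicate 2.

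The conjugation genes split into members on either side of 0. Of the 9 tested, 4 had a mean above 0 and 5 below, where 50.8% of all features were below, and 0 passed. ATG8, which encodes the ubiquitin-like protein that is attached to phosphatidylethanolamine on the growing membrane, had 0.67, 0.20 and -0.23. On replicate 3 its high power scan gave 0.01 and its low power scan -0.48, so the value below 0 came from the low power scan. The arrays fell in a wide range around 0, with a mean of 0.21 ± 0.45 (SD, n = 3 arrays), or 1.16-fold. The 95% interval ran between 0.856-fold and 1.57-fold (limma adjusted p = 0.771), and without replicate 1 the mean was -0.0177. On high power scans alone the mean of ATG8 was 0.26. ATG4, the protease that trims Atg8, averaged 0.16 ± 0.26 (SD, n = 3 arrays), and 0.02 without replicate 3. ATG5, a partner of Atg12 in the second ligation system, had 0.00278, 0.17 and 0.60, above 0 on each array although replicate 1 lay almost at 0, and its mean was 0.26 ± 0.31 (SD, n = 3 arrays; limma adjusted p = 0.704). Without replicate 3 the mean was 0.09. On replicate 2 the scans of ATG5 gave -0.01 at high and 0.35 at low power.

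Among the conjugation genes below 0, ATG3 and ATG16 were low on each array. ATG3, the enzyme that hands Atg8 to its lipid, had -0.34, -0.24 and -0.43, a mean of -0.33 ± 0.09 (SD, n = 3 arrays; limma adjusted p = 0.560), and ATG16, which joins Atg5 and Atg12 into their complex, had -0.17, -0.54 and -0.29 with a mean of -0.33 ± 0.19. ATG21, a phosphoinositide-binding protein that brings Atg16 to the membrane, had -0.00618, -0.91 and -0.38 and the lowest mean of the group, -0.43 ± 0.46 (SD, n = 3 arrays; limma adjusted p = 0.465). Its value on replicate 1 was the average of 0.33 in the high power scan and -0.35 in the low power scan, and without replicate 2 its mean was -0.19. ATG12, the second ubiquitin-like protein, had -0.78, -0.50 and 0.16, so that replicate 3 opposed the others, with a mean of -0.37 ± 0.48 (SD, n = 3 arrays), which became -0.17 when replicate 1 was left out and -0.64 when replicate 3 was. ATG7, the activating enzyme of both systems, had -0.18, -0.95 and 0.14, and its mean of -0.33 ± 0.56 (SD, n = 3 arrays) was -0.02 without replicate 2. ATG10, the conjugating enzyme for Atg12, had 0.55, -0.34 and -0.14, with a mean of 0.02.

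The 9 tested genes for selective autophagy included ATG39, with the third lowest mean of the 35, and ATG40, with the highest, and 0 passed. Of the 9, 8 had a mean below 0, where 50.8% of all features did. ATG39, a receptor for the nuclear envelope and the endoplasmic reticulum around it, had -0.56, -0.74 and -0.34, each measured in the high power scan only. All arrays were low, and the mean of -0.55 ± 0.20 (SD, n = 3 arrays), or 1.46-fold lower, had a 95% interval of -0.96 to -0.14 and a limma adjusted p of 0.303. ATG40, the receptor for cortical endoplasmic reticulum, lay on the other side, at 0.45, 0.45 and 0.09, with a mean of 0.33 ± 0.21 (SD, n = 3 arrays; limma adjusted p = 0.578). On replicate 3 the scans of ATG40 gave 0.18 at high and -0.00352 at low power.

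The receptors for mitochondria, peroxisomes and vacuolar enzymes lay on both sides of 0 across arrays. ATG32, the mitochondrial receptor, had 0.37, -0.41 and -0.26 with a mean of -0.10 ± 0.41 (SD, n = 3 arrays), and ATG33, a mitochondrial outer membrane protein that takes part in mitophagy, had 0.66, -0.19 and -0.49 with a mean of -0.00581. For both genes replicate 1 was above 0 and the other arrays below it. ATG36, the peroxisome receptor, had -0.16, -1.02 and 0.21, and the mean of -0.32 ± 0.63 (SD, n = 3 arrays) was 0.0269 without replicate 2. ATG19, the receptor for the precursor of aminopeptidase I, had 0.32, -0.06 and -0.39 and a mean of -0.04. Its relative ATG34, a receptor for alpha-mannosidase during starvation, had 0.13, -0.23 and -0.02 and the same mean of -0.04. ATG19 and ATG34 are neighbours in the RefSeq gene order and related in sequence, and whether their probes separate them was not tested.

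ATG20, ATG26, ATG45 and the genes acting in the vacuole completed the set. ATG20, a sorting nexin, had -0.65, -0.27 and -0.04 with a mean of -0.32 ± 0.31 (SD, n = 3 arrays), and -0.16 without replicate 1. ATG26, a sterol glucosyltransferase whose part in peroxisome turnover is known from the yeast Komagataella, averaged -0.20 ± 0.26, and -0.06 without replicate 1. ATG45, a receptor described for glycogen, had 0.56, 0.16 and 0.11, above 0 throughout, with a mean of 0.28 ± 0.25 (SD, n = 3 arrays; limma adjusted p = 0.661) and 0.14 without replicate 1. ATG42, a vacuolar carboxypeptidase, had -0.19, -0.26 and -0.13 and a mean of -0.19 ± 0.07 (SD, n = 3 arrays), where the arrays were close to each other and to 0. On replicate 1 the scans of ATG42 gave 0.03 at high and -0.40 at low power. ATG15, the lipase that opens autophagic bodies, had 0.21, -0.08 and -0.36, and ATG22, a vacuolar exporter of amino acids, had 0.20, -0.40 and 0.51. The means of ATG15 and ATG22 were -0.08 and 0.11.

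The median of the ATG genes lay below that of all features on each array. Of the 35, 25 had a mean below 0, or 71.4%, against 50.8% of all features. The median was -0.08 for the ATG genes, between -0.67 and 0.33, against -0.01 for all features. On replicates 1, 2 and 3 the ATG median was -0.03, -0.24 and -0.13, against 0.01, 0.03 and -0.02 for all features. The ATG genes below 0 numbered 20, 25 and 23, or 57.1%, 71.4% and 65.7%, against 49.4%, 46.9% and 52.0% of all features. Replicate 2 thus had the lowest ATG median and the largest gap to all features, and replicate 1 the smallest gap. The list was not tested as a set, and nothing particular to it is drawn from these values.

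**Figure D2:**
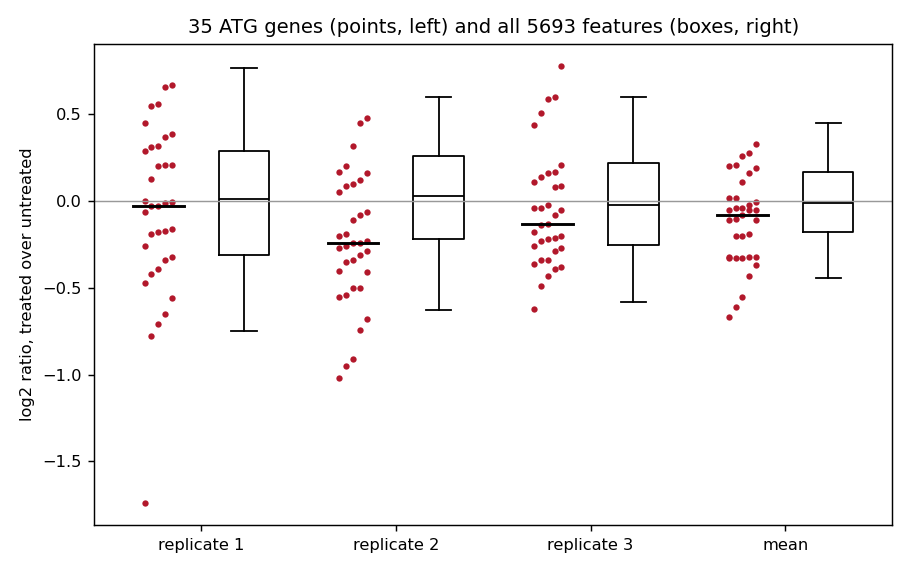
Log2 ratio of treated over untreated cultures (vertical axis) on each array and as the mean of 3 arrays, with a point for each of the 35 ATG genes and a bar at their median, beside boxes of all 5693 features (median, quartiles, and whiskers at the 5th and 95th percentiles). The ATG median is -0.24 on replicate 2 and -0.08 for the mean, and the point at -1.74 on replicate 1 is ATG38.

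All 3 arrays had the same sign for 13 ATG genes. Of the 35, 10 were below 0 throughout, or 28.6%, against 16% of all features, and 3 were above 0 throughout, or 8.57%, against 16% of all features. The 10 were ATG1, ATG3, ATG14, ATG16, ATG17, ATG18, ATG20, ATG21, ATG39 and ATG42, and the 3 were ATG5, ATG40 and ATG45. The counts include ATG14, ATG21 and ATG5, which lay within 0.01 of 0 on replicate 1. The SD over arrays exceeded the size of the mean for 25 of the 35 genes, and for 4016 of the 5693 features. It had a median of 0.31 for the ATG genes and 0.30 for all features, between 0.04 for ATG17 and 1.01 for ATG38. Across the 35 genes, which share arrays and are not independent, replicates 1 and 2 had a Pearson r of 0.266, replicates 1 and 3 of -0.0663 and replicates 2 and 3 of 0.0598. The same pairs had 0.164, 0.217 and 0.0254 over all 5693 features.

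The ATG genes were measured mostly in the high power scans. A high power scan had a value for 35, 36 and 36 of the 36 genes on replicates 1, 2 and 3, which is 97.2%, 100% and 100%, against 82.9%, 86.9% and 86.0% of all probes. A low power scan had one for 8, 10 and 17 of them, or 22.2%, 27.8% and 47.2%, against 36.1%, 40.9% and 59.0% of all probes. ATG13, ATG21 and ATG42 were the 3 genes with a value in all 6 scans, and 15 genes had a value in 3. Scans of an array gave opposite signs for 6 of the 35 pairs of ATG values, or 17.1%, against 20.4% of all such pairs, and their median difference in size was 0.20 against 0.15. The widest gap was for ATG21 on replicate 1, and ATG7 on replicate 2 had -0.64 at high and -1.25 at low power.

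**Figure D3:**
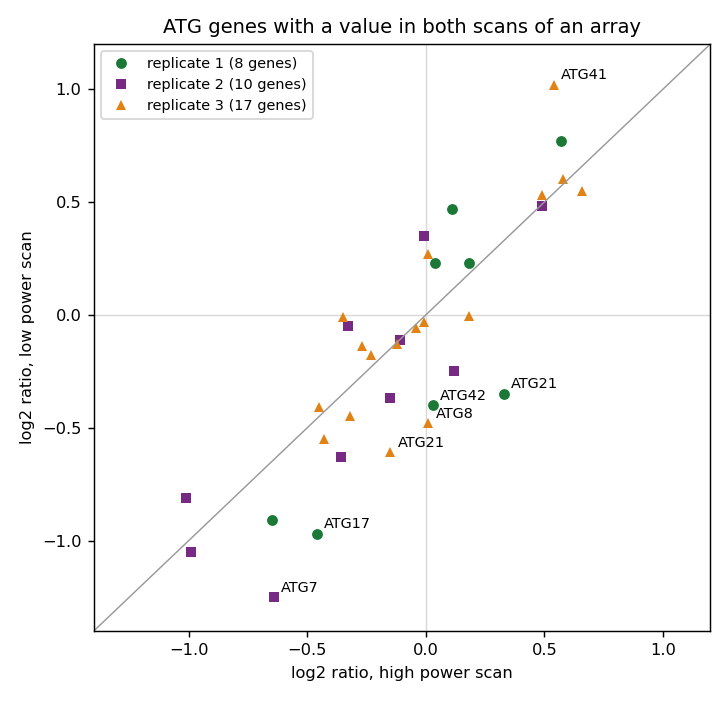
Log2 ratio in the low power scan (vertical axis) against that in the high power scan of the same array (horizontal axis) for the 35 pairs of ATG values, with a symbol for each array and a line of equality. Genes whose scans differ by more than 0.42 are named, among them ATG21 at 0.33 and -0.35 on replicate 1.

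Several ATG means moved when a trend over the probe numbers was removed. The probe number has 4 fields of digits, and a sum of effects of these fields held 14.1%, 18.6% and 9.85% of the variance of all features on replicates 1, 2 and 3. Whether the fields stand for places on the array was not tested. With this trend removed ATG17 had a mean of -0.48, ATG39 of -0.46, ATG38 of -0.57 and ATG21 of -0.29. ATG7, at -0.33 before, was at -0.07, ATG40, at 0.33 before, was at 0.15, ATG4, at 0.16 before, was at 0.05, and ATG26, at -0.20 before, was at -0.06. The ATG median was then -0.06, with 24 of 35 means below 0, where 2823 of 5693 features were, and 0 ATG genes were called, where 1 feature was. Medians on replicates 1, 2 and 3 were -0.04, -0.17 and -0.11, so that replicate 2 was still the lowest.

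**Figure D4:**
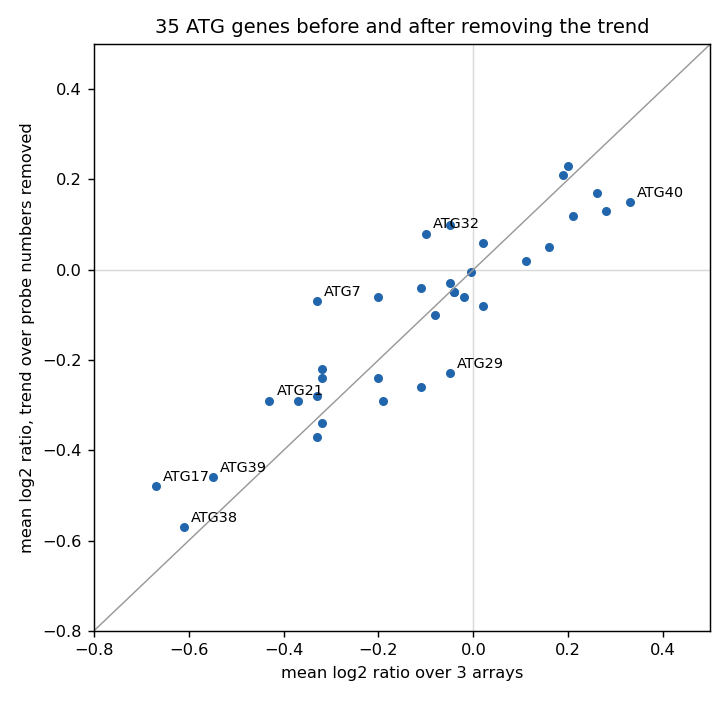
Mean log2 ratio with the trend over probe numbers removed (vertical axis) against the mean as reported (horizontal axis) for the 35 ATG genes, with a line of equality. ATG17 stands at -0.67 before and -0.48 after, and ATG7 at -0.33 before and -0.07 after.

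Other genes of the pathway, listed by role without an ATG symbol, held no calls either. Of 64 listed names, some of them aliases of 1 gene or of an ATG gene, 53 genes were tested. Of these, 0 were called higher and 0 lower, against 0.0351% and 0% of all features. At an unadjusted p under 0.05 there were 0 higher, against 5.48% of all features, and 5 lower, or 9.43%, against 5.29%. Their median was -0.09, against -0.01 for all features, with 36 means below 0, or 67.9%, against 50.8%. VPS34, the lipid kinase that Atg14 and Atg38 accompany, had -1.48, -0.18 and -0.05, with a mean of -0.57 ± 0.79 (SD, n = 3 arrays; limma adjusted p = 0.399) and -0.11 without replicate 1. As for ATG38, replicate 1 was far below the other arrays. The pattern was not particular to this complex, since VAC8 had -1.04, -0.11 and -0.08 and VPS33 had -1.06, 0.02 and 0.18. VPS30, also known as ATG6, had a mean of -0.08, and the kinase partner VPS15 of 0.05.

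Among 10 signalling genes upstream of Atg1, 8 had a mean below 0, where 50.8% of all features did, and 0 passed. TPK3, a catalytic subunit of protein kinase A, was at -0.62, -0.29 and -0.34 with a mean of -0.42 (limma adjusted p = 0.462), and TAP42, a phosphatase regulator under TOR, had a mean of -0.28 ± 0.44 (SD, n = 3 arrays), which became -0.09 when replicate 1 was left out and -0.52 when replicate 2 was. Of 9 transcription regulators described for ATG genes, 4 had a mean above 0 and 5 below, where 50.8% of all features were below. The GATA activators GAT1 and GLN3 had the smallest p among them, with GAT1 at 0.41, 1.07 and -0.46 and a mean of 0.34 ± 0.77, and GLN3 at 0.40, 0.51 and -0.06 with a mean of 0.28 ± 0.31 (SD, n = 3 arrays). Replicate 3 was below 0 for both. Leaving out 1 array moved GAT1 between -0.03 without replicate 2 and 0.74 without replicate 3, and GLN3 between 0.17 and 0.46. UME6, the DNA-binding part of a repressor of ATG8, had a mean of 0.07.

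Of 13 partners in selective transport, 9 had a mean below 0 (50.8% of all features did), with APE4, an aspartyl aminopeptidase carried to the vacuole, at -0.17, -0.42 and -0.75 (mean -0.45, limma adjusted p = 0.425) and the sorting nexin SNX41 at 0.47, 0.82 and -0.06 (mean 0.41, and 0.21 without replicate 2). APE1, the cargo that Atg19 binds, had a mean of -0.09. Among 15 genes for tethering and fusion at the vacuole, PEP3 and VAM6, subunits of the HOPS tether, had means of -0.55 ± 0.52 and -0.47 ± 0.20 (SD, n = 3 arrays; limma adjusted p of 0.357 and 0.399). VAM6 was below 0 on each array, while PEP3 had 0.01 on replicate 2 and a mean of -0.33 without replicate 1. Of 3 vacuolar hydrolases, PRC1, carboxypeptidase Y, had a mean of -0.31, CPS1, a carboxypeptidase, of 0.07 and PEP4, proteinase A, of -0.01. The means of VPS15, UME6, APE1, CPS1 and PEP4 turned sign when some replicate was left out.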

How the data were processed

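Poly(A) RNA of paraquat-treated and untreated yeast was compared on 3 arrays in 6 scans. The deposited values are log ratios, taken as log2; per the labels the authors applied LOWESS to spots with flag 0. Of 6912 probes, the platform annotation named a single gene for 5513, several for 0 and none for 1399, and 5508 symbols were updated through RefSeq, assembly R64. Probes with identical values in each scan were joined (78 sets, with 0 ATG probes), and 761 without a value were left out. The scans of an array were averaged where both had a value, and the 5693 features with a value on 3 arrays were fitted with limma 3.58.1 in R 4.3.3 (lmFit and eBayes against 0, two-sided, 19.1 prior and 2 residual degrees of freedom), and p-values were adjusted over all of them by Benjamini-Hochberg. Precision is limited by the number of arrays; the median standard error was 0.201. The fit was tested on simulated data.

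The members, the lists by role, the tests and the naming rule were chosen with earlier results of these data known. Each ATG gene was named; array values were printed for genes with 1 sign on all arrays, for the 10 smallest p-values and for others of each role, and the genes with the 2 smallest p of each pathway list were named. VPS15, UME6, APE1 and PEP4 fall outside this rule and were named for their roles after their values were seen. VAC8 and VPS33 also fall outside it and were named for their low values on replicate 1. Alternatives were each scan alone, centring, filters on missing values, robust or no variance moderation, removal of the trend over probe numbers and leaving out each replicate.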

Additional observations from a re-analysis of the deposited data

How the results depend on the processing

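The count of called ATG genes was 0 in each of the 11 alternatives, with a smallest limma adjusted p of 0.126 for any ATG gene in any of them. The count over all features, 2 here, was 0 without variance moderation, with arrays centred on their median and on high power scans alone, 1 with the trend over probe numbers removed, 6 with a value on at least 2 arrays and with robust eBayes, 18 on low power scans alone and 19 with a value in all 6 scans; leaving out a replicate it ranged from 0 to 69. The ATG median of -0.0766 was -0.30 on low power scans alone and -0.19 with a value in all 6 scans, settings that keep only 3 ATG genes, and between -0.17 and -0.0254 when a replicate was left out. Each array holds its own treated and untreated sample as 1 ratio, so the test of the ratio against 0 is already paired by array.

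The sign of 4 ATG means turned in a setting that keeps all replicates: ATG19 was at 0.0393 on high power scans alone, and with the trend removed ATG11 was at 0.10, ATG10 at -0.08 and ATG32 at 0.0823. Leaving out each replicate turned the sign of 16 of the 35 and kept that of 19, and signs that turned were not counted over all features. Those that turned ranged from -0.0177 to 0.43 for ATG8, -0.0922 to 0.54 for ATG41, -0.097 to 0.36 for ATG22, -0.24 to 0.21 for ATG10, -0.26 to 0.24 for ATG27, -0.59 to 0.0269 for ATG36, -0.33 to 0.0232 for ATG23, -0.33 to 0.0554 for ATG32, -0.22 to 0.063 for ATG15, -0.27 to 0.0926 for ATG31, -0.12 to 0.0342 for ATG29, -0.18 to 0.079 for ATG11, -0.23 to 0.13 for ATG19, -0.13 to 0.0572 for ATG34, -0.0939 to 0.0993 for ATG9 and -0.34 to 0.24 for ATG33. The cause was not tested. Spot intensities were not used here, so the signal over background behind each ratio is unknown.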
